A study of Mus musculus with 2 samples.

Results

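Gamma-delta T cells were described here among CD45.2+ immune cells sorted from GL261 tumour-bearing mouse brains. They were chosen by a gate on raw transcript counts (unique molecular identifiers, UMIs): at least 2 UMIs of Cd3d, Cd3e and Cd3g together, at least 1 UMI of Trdc, none of Cd4, Cd8a, Cd8b1 or Ncr1, and at most 2 UMIs each of Lyz2 and C1qb, in cells with at least 200 genes and at most 10% mitochondrial UMIs. The gate held 95 of 12478 kept cells, 54 of 3657 in the wild-type library and 41 of 8821 in the library labelled Fcgr2b knockout. GL261 is a mouse glioma line, and Fcgr2b encodes the inhibitory IgG receptor FcγRIIB.

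Both groups of mice carried the tumour and both received the PD-1 antibody, so neither library shows untreated tumour. Each mouse was inoculated with 100000 GL261 cells and given 200 µg of antibody into the peritoneum on days 10, 13 and 16, and brains were taken on day 20. Live CD45.2+ cells of 5 brains were pooled per genotype and made into 1 10x Genomics 5′ library each, so a difference between genotypes has no replicate and no test. The labels give no strain, age or knockout allele, the protocol calls the sorted cells lung cells in 1 place although the tissue is labelled brain, and the molecule label differs between the libraries. Fcgr2b itself had 1 UMI in the wild-type and 2 UMIs in the labelled knockout gamma-delta cells, and because the deleted part is not given these counts check nothing.

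Gamma-delta T cells carry a receptor of a gamma and a delta chain in place of the alpha and beta chains of CD4 and CD8 T cells. In mice they include cells programmed in the thymus to secrete IL-17A, which respond to IL-1 and IL-23 and often carry the scavenger receptor SCART1 (Cd163l1), and cells that secrete interferon-gamma and share receptors and granule proteins with NK cells. IL-17A-secreting cells with a Vγ6 and Vδ1 receptor settle in barrier tissues and in the meninges around the brain.

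The 250 bases before the annotated starts of Il17a and Ifng are shown because the cells divided by the transcripts of these genes. The sequences are from RefSeq on GRCm38.p6, plus strand, 5′ to 3′, and capitals mark AGGTCA or its reverse complement TGACCT, a half-site that nuclear receptors bind.
Il17a, chr1:20730655-20730904: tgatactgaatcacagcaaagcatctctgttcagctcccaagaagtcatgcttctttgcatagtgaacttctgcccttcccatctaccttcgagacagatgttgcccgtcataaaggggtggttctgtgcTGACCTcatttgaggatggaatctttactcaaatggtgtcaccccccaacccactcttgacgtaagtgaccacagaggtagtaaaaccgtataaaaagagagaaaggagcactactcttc
Ifng, chr10:118440796-118441045: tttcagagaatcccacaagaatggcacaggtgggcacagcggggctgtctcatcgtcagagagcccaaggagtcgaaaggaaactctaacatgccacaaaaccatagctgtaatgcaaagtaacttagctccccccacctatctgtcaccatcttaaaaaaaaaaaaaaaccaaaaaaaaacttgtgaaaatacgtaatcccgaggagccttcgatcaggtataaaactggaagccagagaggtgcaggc
The Il17a window held 1 match, TGACCT, which began 120 bases before the start, and the Ifng window held none. A match on either strand stood in 14.0% of 32851 RefSeq promoter windows of the same 250 bases, so a match is common and is a description of the letters only.

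The gated cells carried the markers of their name. Trdc (chr14:54142851-54148868, the delta constant segment) was in the gate, and its count per cell ran from 1 to 19 UMIs with a median of 2.5 in the wild-type library and from 1 to 13 with a median of 3 in the labelled knockout library. Tcrg-C1 (chr13:19214103-19217024), a gamma constant segment that the gate did not use, was found in 29 of 54 and 18 of 41 cells. In CD8 T cells, gated on Cd8a and Cd8b1, Tcrg-C1 was found in 16 of 2040 cells, and in 211 gated B cells it was found in none. Trdc itself stood at 0 CPM in the CD8 T, conventional CD4 T and NK cells of both libraries. Cells with CD3 and Trdc UMIs that also had Cd8 (13), Cd4 (8) or Ncr1 (4) UMIs existed but are not in these classes. This 0 reflects how the classes were chosen and is no support for the name of the gated cells. Each comparison with these classes therefore set Trdc-positive against Trdc-negative cells. Any gamma constant segment was detected in 68.5% (95% Clopper-Pearson interval 54.4 to 80.5) and 75.6% (59.7 to 87.6) of the gamma-delta cells and in 23.1% and 12.7% of CD8 T cells. Tcrg-C2, another gamma constant segment, stood at 136 and 63.7 CPM (summed UMIs scaled to an equal total in each group and library) in gamma-delta and 84.0 and 31.1 CPM in CD8 T cells and did not pass the test (edgeR adjusted p = 0.149). All intervals here are 95% and cover counting error only.

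Transcripts of the alpha-beta receptor were present as well. Trac, the alpha constant segment, had UMIs in 12 of 54 and 10 of 41 gamma-delta cells, against 76.5% and 80.8% of CD8 T cells and 3.77% and 5.71% of NK cells. Trbc1 or Trbc2, the beta constant segments, had UMIs in 75.9% and 70.7% of gamma-delta cells, but also in 67.9% and 58.6% of NK cells, which make no receptor. Summed Trbc2 was higher than in NK cells (log2 fold change 1.52, SE 0.30, edgeR adjusted p = 0.00599) and did not pass against CD8 T cells (-0.73, SE 0.24, adjusted p = 0.0971), and Trbc1 passed against neither. In CD8 T cells Trbc1 or Trbc2 had UMIs in 95.1% and 92.9%. Summed Trac was lower in gamma-delta than in CD8 T cells by a log2 fold change of -1.76 (SE 0.19, edgeR adjusted p = 1.16e-05) and higher than in NK cells by 2.98 (SE 0.34, adjusted p = 2.81e-05). The part of alpha-beta T cells in the gate was not tested beyond repeating each comparison without cells that carry these transcripts.

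The Trdc and CD3 limits set most of the edge of the gate. Of the 95 cells, 25 had exactly 1 Trdc UMI, and 16.0% of these had Il17a and 24.0% Cd163l1. Among the 70 cells with 2 or more Trdc UMIs the shares were 41.4% and 55.7%. Ifng was found in 24.0% of the cells with 1 Trdc UMI and in 20.0% of those with 2 or more. Just outside stood 755 cells that met every other condition but had no Trdc UMI, and of these 1.85% had Il17a, 22.9% had Ifng, 1.06% had Cd163l1 and 63.7% had Trac. A further 21 cells missed only for a single CD3 UMI, 13 only for Cd8, 8 only for Cd4, 4 only for Ncr1 and 1 only for Lyz2.

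Gamma-delta T cells made up 1.48% (1.11 to 1.92) of kept cells in the wild-type library and 0.465% (0.334 to 0.630) in the labelled knockout library. The ratio of the shares was 0.315 (0.204 to 0.481). The composition of the libraries moved with this share, because a macrophage gate held 14 of 3657 cells in the wild-type and 1355 of 8821 in the labelled knockout library, and its part was not tested. Of gated T cells alone, gamma-delta cells were 3.97% (2.99 to 5.15) and 1.40% (1.00 to 1.89), a ratio of 0.352 (0.229 to 0.539). With 1 library per genotype, genotype, pool of mice and library cannot be told apart. The 2 libraries shared 46 cell barcodes, and 1 gamma-delta cell bore one of them.

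**Figure D1:**
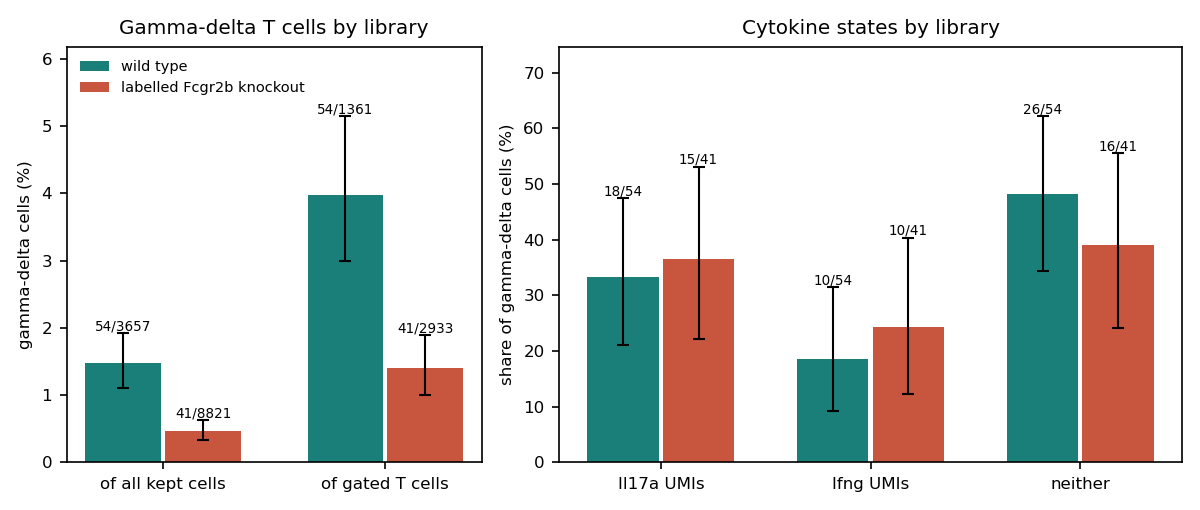
Left, gamma-delta T cells as a percentage of all kept cells and of gated T cells in each library. Right, the share of gamma-delta cells with Il17a UMIs, with Ifng UMIs or with neither. Bars are shares, error bars exact 95% binomial intervals, and the fractions give cells over total. The gamma-delta share was 1.48% and 0.465% of kept cells, while the intervals of the state shares overlapped between libraries.

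Il17a and Ifng UMIs were not found in the same gamma-delta cell. Over both libraries 33 of 95 cells (34.7%, 25.3 to 45.2) had Il17a UMIs, 20 (21.1%, 13.4 to 30.6) had Ifng UMIs, 42 had neither, and 0 had UMIs of both. The exact interval of this count of 0 reaches 3.81% of cells with both UMIs (3.16% by a limit of 3 counts). It does not limit co-expression, since 11 of the 20 Ifng-positive cells had a single Ifng UMI. The first are called Il17a-type and the second Ifng-type. These names come from the counts that define them. Il17a was found in 3 of 2040 CD8 T cells, 8 of 871 conventional CD4 T cells, 0 of 176 NK cells and 0 of 211 B cells, and the B cells, at median depths of 2045 and 3315.5 UMIs, give the background from free RNA.

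Il17a-type cells were 18 of 54 (33.3%) in the wild-type and 15 of 41 (36.6%) in the labelled knockout library, a ratio of 1.10 (0.515 to 2.31). Ifng-type cells were 10 of 54 (18.5%) and 10 of 41 (24.4%), a ratio of 1.32 (0.492 to 3.53). Both intervals include no difference and also changes of about 2-fold in either direction. Il17a counts were high where present. In the wild-type library they ran from 1 to 76 UMIs per positive cell with a median of 10.5, and in the labelled knockout library from 1 to 94 with a median of 22. Ifng counts were low, with medians of 1 and 2 UMIs per positive cell. When each cell was thinned to 1000 UMIs, 28.7% of 94 cells kept an Il17a UMI and 11.7% an Ifng UMI, so cells without either transcript cannot be taken as cells without the programme. Median depth was 2665.5 and 3597 UMIs in Il17a-type, 3640.5 and 2399.5 in Ifng-type and 2421 and 3616.5 in the remaining cells.

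The receptor segments followed the states. Trdv4 (chr14:54074905-54075515), which encodes the Vδ1 segment, was the delta variable segment found in the most cells, 10 in the wild-type and 17 in the labelled knockout library. Of these 27 cells 20 were Il17a-type, 1 was Ifng-type and 26 carried Cd163l1. Tcrg-V6 (chr13:19190356-19190929), the Vγ6 segment, was found in 8 cells, of which 7 also had Trdv4 and 7 were Il17a-type. The labelled knockout library held 7 of these cells, 6 of them Il17a-type, and the wild-type library held 1, with 1 UMI. Tcrg-C4 ran the other way and was found in 9 of 20 Ifng-type and 4 of 33 Il17a-type cells. This contrast came mostly from the labelled knockout library, with 7 of 10 and 2 of 15 cells, against 2 of 10 and 2 of 18 in the wild-type library. Its summed level in the Il17a-type was 0.194 times (0.0552 to 0.562) that in the Ifng-type. The detection of variable segments differed between the libraries in other T cells too, as beta variable segments appeared in 12.7% of CD8 T cells of the wild-type and 55.7% of the labelled knockout library. Delta variable segments in CD8 T cells stood at 2.94% and 7.97%, and gamma variable segments at 6.27% and 5.10%. Segment use was therefore not compared between libraries.

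**Figure D2:**
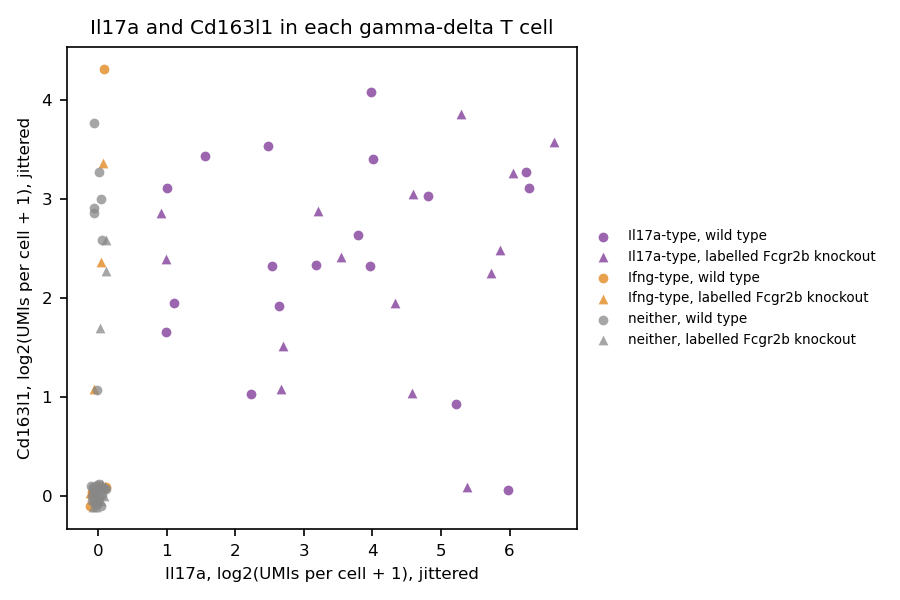
Each point is 1 gamma-delta T cell, placed by its Il17a UMIs (x) and its Cd163l1 UMIs (y), both as log2(UMIs + 1) with a small jitter. Colour gives the state and shape the library. All but 2 of the 33 Il17a-type cells carried Cd163l1, whereas most of the other 62 cells lay at 0 on both axes.

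Cd163l1 (chr7:140218267-140231145), the SCART1 gene, marked the Il17a-type and some of the cells without cytokine transcripts. It had UMIs in 17 of 18 and 14 of 15 Il17a-type cells, 1 of 10 and 3 of 10 Ifng-type cells, and 7 of 26 and 3 of 16 cells with neither. Its summed level was 1689 and 1320 CPM in Il17a-type and 427 and 550 CPM in Ifng-type cells. All of the wild-type Ifng-type level came from 1 cell with 18 UMIs. The summed levels did not pass the test between states (log2 fold change 1.60, SE 0.55, edgeR adjusted p = 0.113).

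Against the Ifng-type, the Il17a-type carried more of the IL-1 receptor, surface and regulatory genes of type 17 cells and less of some NK-like and cytotoxic genes. UMIs were summed by state and library and fitted with edgeR, the library being a block, and of 1104 genes tested 33 (2.99%) were higher and 22 (1.99%) lower in the Il17a-type at an adjusted p below 0.05. DESeq2 gave 21 and 16. Of the 14 tested genes of a type 17 list 7 were higher and 0 lower, with a median log2 fold change of 2.67 beside -0.04 over all genes. The list has 25 members, and the others did not pass a filter on low counts. Members without UMIs in the Ifng-type, such as Blk and Ramp1, could not pass it through that group. The count and the median are thus in part fixed by the filter. With DESeq2, and also without the library block, 5 of the 14 were higher. Il17a and Ifng define the states and were not called.

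Maf, a transcription factor of IL-17-secreting cells, stood at 656 and 617 CPM in Il17a-type and 23.7 and 147 CPM in Ifng-type cells (log2 fold change 3.04, SE 0.63, edgeR adjusted p = 0.0138). Il1r1, the IL-1 receptor, had 18 and 16 UMIs in Il17a-type and 0 and 1 in Ifng-type cells (4.08, SE 1.03, adjusted p = 0.0369). Blk, a Src-family kinase, had 15 and 30 UMIs in the Il17a-type and none in the Ifng-type, at least 8.73-fold higher against a floor of 3 counts over the group (adjusted p = 0.00734). Neither of the Ifng-type libraries reached the Il17a-type libraries for any of these 3 genes. Ramp1, the subunit that makes the receptor for the neuropeptide CGRP, was likewise at 17 and 27 UMIs against none, at least 8.54-fold higher (adjusted p = 0.00734). Tmem176a, Tmem176b and Cxcr6 of the same list also rose.

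Among genes outside that list, Cxcl2, a neutrophil-attracting chemokine, had 58 and 13 UMIs in the Il17a-type and none in the Ifng-type, at least 13.8-fold higher (edgeR adjusted p = 0.00257). Hif1a, the oxygen-responsive transcription factor, stood at 1197 and 1423 CPM against 190 and 147 CPM (log2 fold change 2.87, SE 0.48, adjusted p = 0.00257). Icos and Ctla4, a costimulatory and an inhibitory receptor, rose by 2.93 (SE 0.57, adjusted p = 0.00894) and 2.65 (SE 0.61, adjusted p = 0.0255). Fth1, the ferritin heavy chain, rose by 2.31 (SE 0.26, adjusted p = 0.000103). Areg, the epidermal growth factor receptor ligand amphiregulin, had 22 and 373 UMIs against 1 and 0 and was called higher (6.99, SE 1.47, adjusted p = 0.0152), but 283 of the 373 lay in 1 cell. DESeq2 did not call Areg between the states. Il6 and Il4, at 40 and 39 UMIs in the wild-type Il17a-type and 0 elsewhere, each came from 1 cell and were not tested. In the wild-type library 1 Il17a-type cell carried 2 UMIs of mast cell or basophil markers. Whether it was the source of the Il6 or Il4 UMIs was not tested. Rexo2, a mitochondrial RNA exonuclease, had 11 and 18 UMIs against none and was called higher (adjusted p = 0.0274). Ece1 (8 and 17 UMIs against none), Jcad (8 and 16 against none) and, in the other direction, Pclaf (1 and 0 against 27 and 4) were too sparse for the test.

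The 22 genes lower in the Il17a-type included chemokines, NK receptors, granule proteins and the cell cycle genes Hmgb2 and Stmn1. Ccl5, a T cell chemokine, stood at 16.4 and 103 CPM against 2797 and 4952 CPM in the Ifng-type (log2 fold change -6.04, SE 0.45, edgeR adjusted p = 1.63e-06). Ly6c2, a surface protein of effector T cells, had 1 UMI in all 33 Il17a-type cells and 143 in the Ifng-type (-7.61, SE 0.72, adjusted p = 1.96e-05). Nkg7, a cytotoxic granule protein, had 3 UMIs against 86 (-5.50, SE 0.64, adjusted p = 0.000166). Each was lower in the Il17a-type in both libraries. Xcl1, a chemokine, and Klrd1, the CD94 receptor chain, had 0 UMIs in the Il17a-type and 44 and 28 UMIs in the Ifng-type, at least 25.2-fold and 16.0-fold lower (adjusted p = 0.00113 and 0.00191). Ctsw, Fcer1g, Txk, Ctla2a, Serpinb6b and Klra5 fell too. Of 10 cytotoxic genes 6 passed the filter on low counts, which genes absent from the Il17a-type could pass only through other cells. Of these 6, 3 were lower and 0 higher, with a median log2 fold change of -5.14 (-4.18 with genes at 0 UMIs set to their bound). Gzma went 0 and 137 CPM against 6021 and 36.7 CPM, with opposite signs in the libraries, and did not pass (adjusted p = 0.0567). Gzmb, at 65.6 and 189 CPM against 593 and 110 CPM, did not pass either (adjusted p = 0.255).

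**Figure D3:**
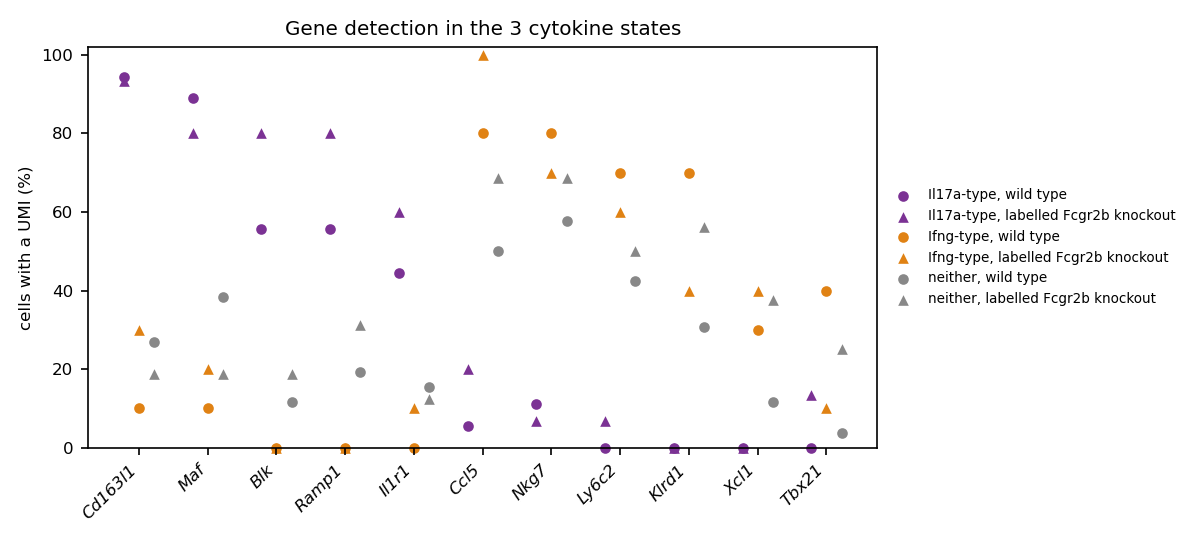
Percentage of cells with at least 1 UMI of each gene (y) in Il17a-type, Ifng-type and remaining gamma-delta T cells. Circles are the wild-type and triangles the labelled knockout library. Cd163l1, Maf, Blk, Ramp1 and Il1r1 were most frequent in the Il17a-type in both libraries, and Ccl5, Nkg7, Ly6c2, Klrd1 and Xcl1 were rare or absent there.

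The 42 cells with neither cytokine held both kinds of transcript. In these, Ccl5 had UMIs in 24 cells, Nkg7 in 26 and Ly6c2 in 19, while Cd163l1 had UMIs in 10, Maf in 13 and Blk in 6. Each of these shares lay between those of the Il17a-type and the Ifng-type.

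Compared with CD8 T cells of the same libraries, gamma-delta cells carried the type 17 programme and immediate-early genes and less of the cytotoxic, cell cycle and glycolysis genes. UMIs were summed per library in gamma-delta, CD8 T, conventional CD4 T and NK cells and fitted together with the library as a block, so the error is that of class differences between 2 libraries of different genotype. Of 8768 genes tested, 285 (3.25%) were higher and 183 (2.09%) lower in gamma-delta than in CD8 T cells by edgeR. DESeq2 gave 435 higher and 145 lower. Without gamma-delta cells that carry Trac, Trbc1 or Trbc2 UMIs, edgeR called 89 higher and 358 lower, and without those that carry Trac alone 228 higher and 173 lower. The comparison used 510 and 1530 CD8 T cells with 3524.5 and 4613 median UMIs, against 2615 and 3363 in gamma-delta cells. Tests against the 3 classes share the same gamma-delta sums.

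Of the 24 tested genes of the type 17 list, 18 were higher and 0 lower than in CD8 T cells, with a median log2 fold change of 3.42 beside -0.08 over all genes. Without the library block 13 of the 24 were higher. In the 23 gamma-delta cells without Trac, Trbc1 or Trbc2 UMIs, 9 of 19 tested genes were higher. In both settings 0 were lower. Cd163l1 stood at 991 and 596 CPM in gamma-delta and 0.777 and 1.11 CPM in CD8 T cells (log2 fold change 9.29, SE 0.26, edgeR adjusted p = 8.16e-13). Il17a itself, which is not in that list, stood at 2164 and 2565 CPM against 0 and 1.42 CPM (11.04, SE 0.33, adjusted p = 1.61e-12). In both libraries gamma-delta cells were the only class of the 4 above 10 CPM for these 2 genes.

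Sox13, a transcription factor of the IL-17-programmed gamma-delta lineage, had 11 and 8 UMIs and none among 2040 CD8 T or 871 CD4 T cells, at least 230.4-fold higher than in CD8 T cells (edgeR adjusted p = 0.000158). Zbtb16, which encodes PLZF of innate-like T cells, had 11 and 10 UMIs against 1 and 1 (log2 fold change 8.07, SE 0.97, adjusted p = 3.61e-05). Il23r, the IL-23 receptor, had 7 and 3 UMIs and none in CD8 T cells, at least 121-fold higher (adjusted p = 0.00137). These low counts were found in several cells of each library, from 2 cells for Il23r to 10 for Sox13. Il1r1, Blk, Ramp1, Tmem176a, Tmem176b, Maf, Rora, Aqp3, Actn2, Serpinb1a, Ltb4r1, Cd44 and Il7r of the list also rose. Abi3bp, an extracellular matrix-binding protein, had 5 and 11 UMIs in gamma-delta cells and none in CD8 T or CD4 T cells, at least 194-fold higher than in CD8 T cells (adjusted p = 0.000252). Nr1d1, a circadian repressor, had 14 and 7 UMIs against 1 and 1 (7.68, SE 0.89, adjusted p = 3.39e-05).

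**Figure D4:**
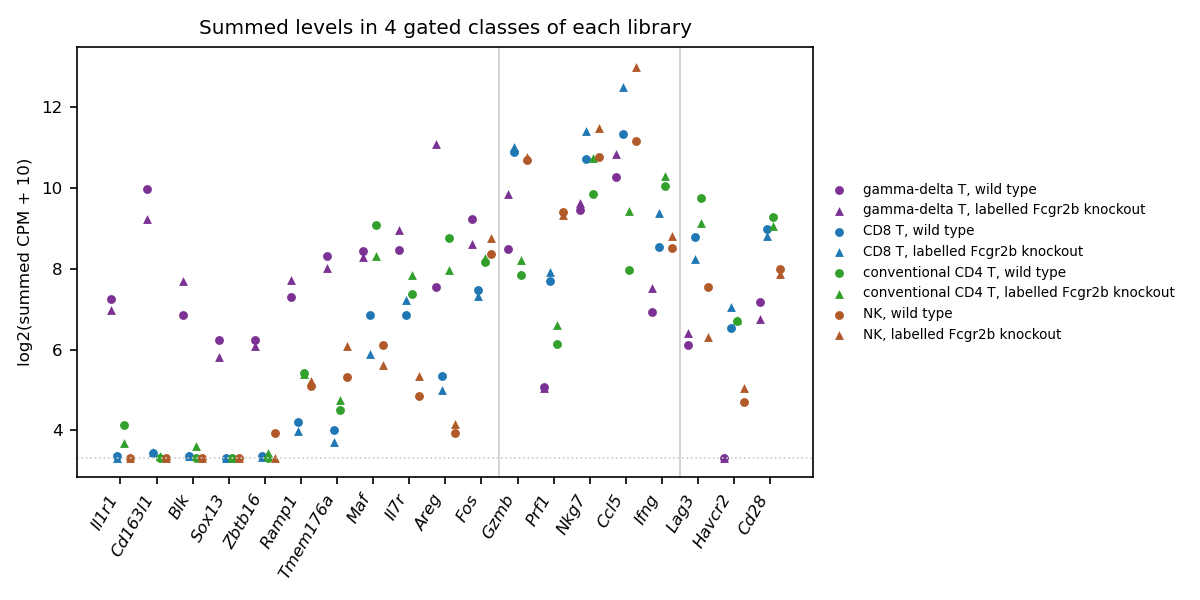
Summed level of selected genes as log2(CPM + 10) in gamma-delta T, CD8 T, conventional CD4 T and NK cells. Circles are the wild-type and triangles the labelled knockout library, and the dotted line marks 0 CPM. Genes of the left block were highest in gamma-delta cells in both libraries except Maf, Areg and Fos, while in the middle block (Gzmb to Ifng) and the right block (Lag3 to Cd28) gamma-delta cells lay below CD8 T cells in both libraries.

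Of 10 cytotoxic genes 7 were lower and 0 higher than in CD8 T cells, with a median log2 fold change of -1.55. Without the library block 2 were called lower. Gzmb, granzyme B, stood at 348 and 921 CPM against 1878 and 2065 CPM (log2 fold change -1.71, SE 0.22, edgeR adjusted p = 6.13e-05). Prf1, the pore-forming protein perforin, stood at 23.6 and 23.2 CPM against 199 and 233 CPM (-3.22, SE 0.33, adjusted p = 7.12e-06). Both gamma-delta sums lay below both CD8 T sums for each. Gzmf fell by 5.51 on the log2 scale (SE 0.97, adjusted p = 0.00161), with 1 and 3 UMIs. Ifng itself stood at 112 and 174 CPM against 364 and 654 CPM (-1.83, SE 0.21, adjusted p = 2.2e-05), while Tbx21, the type 1 transcription factor T-bet, did not pass (-0.39, SE 0.33, adjusted p = 0.603). Ifng had UMIs in 58.1% of CD8 T cells and in 1.90% of B cells, a background that gamma-delta cells exceeded at 21.1%. In the 755 cells that missed the gate only for having no Trdc UMI, Ifng had UMIs in 22.9%. Its share was therefore not particular to gamma-delta cells.

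Checkpoint and costimulatory receptors differed in part. Of 11 genes 4 were lower than in CD8 T cells and 0 higher, with a median log2 fold change of -0.62. Havcr2, which encodes TIM-3, had 0 UMIs in all 95 gamma-delta cells and stood at 83.2 and 122 CPM in CD8 T cells, at least 13.0-fold lower against 3 counts (edgeR adjusted p = 5.17e-05). Lag3 stood at 59.0 and 75.3 CPM against 431 and 291 CPM (log2 fold change -2.44, SE 0.27, adjusted p = 1.72e-05). Cd28 and Tnfrsf18 (GITR) were the others. Pdcd1, the target of the antibody all mice received, stood at 171 and 197 CPM in gamma-delta and 267 and 288 CPM in CD8 T cells and did not pass (-0.62, SE 0.31, adjusted p = 0.298).

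Immediate-early genes were higher, with 10 of 14 called up and 0 down and a median log2 fold change of 0.95. Without the library block 4 were called up. Fos, a subunit of AP-1, stood at 596 and 382 CPM against 169 and 152 CPM (log2 fold change 1.58, SE 0.19, edgeR adjusted p = 3.63e-05), and Nr4a1, a nuclear receptor induced by receptor signals, at 643 and 643 CPM against 330 and 294 CPM (1.03, SE 0.15, adjusted p = 0.000306). These genes also respond to tissue dissociation, and the part of handling was not tested. Against NK cells of the same libraries 1 of the 14 was called higher and 0 lower. Of 12 cell cycle genes 7 were lower and 0 higher than in CD8 T cells (median log2 fold change -1.24; 2 without the library block), among them Mki67, a proliferation antigen, at 147 and 75.3 CPM against 210 and 274 CPM (-1.13, SE 0.28, adjusted p = 0.0238). Ccnb2, cyclin B2, had 0 UMIs, at least 5.91-fold lower (adjusted p = 0.0167). Plk1, Ckap2l, Ska1, Hist1h2bj, Mrpl49 and Adamts14 were also at 0 UMIs, with bounds from 2.45-fold to 2.94-fold, and Mt2, a metallothionein, had 1 and 0 UMIs. Of 9 glycolysis genes 4 (Eno1, Gapdh, Ldha and Pgk1) fell and 0 rose, with a median of -0.76, and 0 of them fell without the library block.

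Of 10 repair and growth factor genes 3 were higher than in CD8 T cells and 0 lower (median log2 fold change 1.21), and against CD4 T cells 2 were higher and 2 lower. Of 11 tissue residency genes 3 were higher than in CD8 T cells and 0 lower (median 0.27). Areg stood at 177 and 2160 CPM against 30.7 and 21.8 CPM (log2 fold change 5.44, SE 0.66, edgeR adjusted p = 3.61e-05), Hbegf, a growth factor of the same family, at 64.9 and 122 CPM against 8.55 and 9.01 CPM (3.38, SE 0.39, adjusted p = 2.47e-05) and Furin, a protease, at 271 and 191 CPM against 110 and 57.0 CPM (1.48, SE 0.20, adjusted p = 0.000134). Without the cell with the most Areg UMIs in each library, Areg stood at 109 and 532 CPM. In conventional CD4 T cells Areg stood at 426 and 239 CPM, and it was not called against them. Cd69, a residency and activation marker, stood at 843 and 625 CPM against 335 and 282 CPM (1.22, SE 0.14, adjusted p = 2.22e-05). Of 13 interferon-gamma response genes 5 rose and 0 fell (2 and 0 without the library block), among them Irf1, a transcription factor, by 1.28 (SE 0.20, adjusted p = 0.000503) and Iigp1, an interferon-induced GTPase, by 2.49 (SE 0.40, adjusted p = 0.000756).

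Against conventional CD4 T cells, the Foxp3-negative CD4 T cells of the same libraries, edgeR called 301 genes (3.43%) higher and 234 (2.67%) lower in gamma-delta cells, and DESeq2 458 and 189. Of the 24 type 17 genes 16 were higher and 2 lower, with a median log2 fold change of 2.54 beside -0.08 over all genes. The lower genes were Batf, a transcription factor, and Ccr6, a chemokine receptor often carried by IL-17-secreting gamma-delta cells, which had 0 UMIs in gamma-delta cells and 29.5 and 31.8 CPM in CD4 T cells, at least 3.54-fold lower (adjusted p = 0.0243). Cd163l1 had 0 and 1 UMIs in CD4 T cells (log2 fold change 11.51, SE 0.35, adjusted p = 3.26e-12). Without the library block 10 of the 24 type 17 genes were higher and 0 lower. Without gamma-delta cells that carry Trac, Trbc1 or Trbc2 UMIs, 5 of 19 tested were higher and 0 lower. NK receptors were higher for 8 of 16 genes and lower for 0 (median 1.89), and cytotoxic genes were higher for 5 of 10 and lower for 2 (median 1.18). Ly6c2 stood at 1032 and 637 CPM against 39.3 and 56.4 CPM (4.19, SE 0.27, adjusted p = 2.69e-08). Gamma-delta cells thus lay between CD4 and CD8 T cells for Ccl5, at 1226 and 1812 CPM, against 241 and 680 CPM in CD4 and 2586 and 5749 CPM in CD8 T cells.

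Of 11 checkpoint and costimulatory genes 7 were lower than in CD4 T cells and 0 higher, among them Tnfrsf4 (OX40) at 100 and 162 CPM against 614 and 471 CPM (log2 fold change -1.996, SE 0.25, edgeR adjusted p = 6.08e-05). The genes with the lowest values were Lgals7, Igfbp7, Ccn4, Tpsb2 and Havcr2, all at 0 UMIs in gamma-delta cells, with bounds of at least 20.1-fold, 14.9-fold, 11.3-fold, 14.5-fold and 11.03-fold. Tpsb2 is a mast cell tryptase, and mast cell or basophil marker genes summed to 117 and 29.0 CPM in the CD4 T sums and to 17.7 and 0 CPM in the gamma-delta sums. Their part in the result was not tested. Avil was called higher on 5 UMIs of 1 cell.

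Against NK cells, of which there were 106 and 70, edgeR called 207 genes (2.36%) higher and 138 (1.57%) lower. Of the 24 type 17 genes 17 were higher and 0 lower, with a median log2 fold change of 2.87 (2.67 with genes at 0 UMIs set to their bound) beside -0.06 over all genes. Without the library block 11 of the 24 were higher and 0 lower. Without gamma-delta cells that carry Trac, Trbc1 or Trbc2 UMIs, 7 of 19 tested were higher and 0 lower. Of the named genes, Il17a, Cd163l1, Blk, Il1r1 and Actn2 had no UMI in any NK cell, so that gamma-delta cells were at least 494-fold, 165-fold, 31.7-fold, 26.9-fold and 26.2-fold higher. Of 16 NK receptors 10 were lower and 0 higher (median -1.95), and of 10 cytotoxic genes 8 were lower and 0 higher (median -1.66). Klra8 (Ly49H), Klra9, Klrb1f, Adamts14 and Serpinb9b had no UMI in gamma-delta cells, with Klra8 at least 28.4-fold lower. Prf1 fell by 4.90 on the log2 scale (SE 0.30, adjusted p = 9.11e-09). Pdcd1 was higher than in NK cells, at 171 and 197 CPM against 2.71 and 66.0 CPM (log2 fold change 2.55, SE 0.49, adjusted p = 0.00499). Icos stood at 731 and 428 CPM against 78.6 and 54.3 CPM (3.002, SE 0.23, adjusted p = 1.51e-07).

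Between the 2 libraries, type 17 transcripts of gamma-delta cells differed in both directions. Of 15 type 17 programme genes at 100 CPM or more in either library, 5 had a log2 ratio above 0 and 10 below, with a median of -0.27. Il17a had 367 and 443 UMIs, a ratio of the labelled knockout to the wild-type library of 1.19 (1.03 to 1.36), and UMIs of 1 cell are not independent of each other. Cd163l1 had 168 and 103 UMIs (0.602, 0.466 to 0.774), and Tcrg-C1 had 76 and 46 (0.594, 0.403 to 0.868). Ifng had 19 and 30 UMIs (1.55, 0.845 to 2.92). Il17f, the sister cytokine, had 1 UMI in all. The median log2 ratio over 1711 genes at 100 CPM or more in either library, with 10 CPM added, was -0.15.

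Many of the largest differences between the libraries were held by single cells. In the labelled knockout library the same cell, with 15284 UMIs, held 54 of 62 H2-Aa, 131 of 156 Cd74, 42 of 48 H2-Eb1 and 42 of 49 H2-Ab1 UMIs. A different cell held 262 of 273 Gzmc UMIs and another 283 of 373 Areg UMIs. All 22 Ifna2 UMIs lay in 1 cell. In the wild-type library 1 cell held all 40 Il6 UMIs and 1 all 39 Il4 UMIs, and 1 cell held both 29 of 30 Hdc UMIs and 116 of 120 Ccl3 UMIs. The cell with the 29 Hdc UMIs was the 1 wild-type cell with 2 UMIs of mast cell or basophil markers. It also had the most Il17a UMIs of the wild-type library, 76. Whether it held the Il6 or Il4 UMIs was not tested. H2-Aa, H2-Ab1, H2-Eb1 and Cd74 are antigen presentation genes of other immune cells. Without the cell with the most UMIs in each library the log2 ratio of Gzmc went from 4.10 to 0.31, that of Ccl3 from -3.53 to -0.24, and those of Ifna2, Il6 and Il4 to 0. The ratio of Hdc went from -3.57 to -0.69, which rests on 1 UMI in the wild-type and 0 in the labelled knockout library. Those of H2-Aa, Areg, H2-Eb1, Cd74 and H2-Ab1 fell to 2.60, 2.19, 1.59, 1.41 and 1.31.

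The other named genes kept their direction without the top cell of each library. Lgals3, galectin-3, had 8 UMIs in 4 cells and 81 UMIs in 15 cells (ratio 9.94, 4.81 to 23.8), with 4 and 37 of them in 1 cell. The 37 lay in the cell that held most of the H2-Aa UMIs. Without the top cell of each library the log2 ratio of Lgals3 was 3.08. Lgals3 stood at 317 and 431 CPM in CD8 T, 159 and 314 CPM in CD4 T and 119 and 423 CPM in NK cells, also higher in the labelled knockout library. Ptgs2, the prostaglandin-synthesis enzyme COX-2, had 32 UMIs in 7 wild-type cells and 0 in the labelled knockout library, at least 10.9-fold lower. Acsl5, a fatty acid-activating enzyme, had 18 UMIs in 14 cells and 2 UMIs in 2 cells (0.109, 0.0123 to 0.456), while CD8 T cells stood at 77.0 and 73.3 CPM. Lgals3 was high and Ptgs2 and Acsl5 low in the labelled knockout library. BC018473 had 0 UMIs in the wild-type and 21 UMIs in 13 cells of the labelled knockout library, and in CD8 T cells it stood at 0 and 81.8 CPM. CAAA01147332.1 had 1 and 23 UMIs, with 24.1 and 130 CPM in CD8 T cells. Ifi206, an interferon-inducible Ifi200 family gene at chr1:173468485-173491041, on the chromosome of Fcgr2b (chr1:170958617-170976547), had 17 and 2 UMIs, with 72.3 and 16.4 CPM in CD8 T cells. Eif3j1, a translation initiation subunit, had 25 and 4 UMIs, with 141 and 66.8 CPM in CD8 T cells. These 4 genes differed in the same direction in CD8 T cells of the same libraries. Gzma had 312 and 53 UMIs, 118 and 33 of them in 1 cell, the 33 in the cell that held most of the H2-Aa UMIs. Pclaf, a replication factor, had 31 and 5, 16 and 4 of them in 1 cell.

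**Figure D5:**
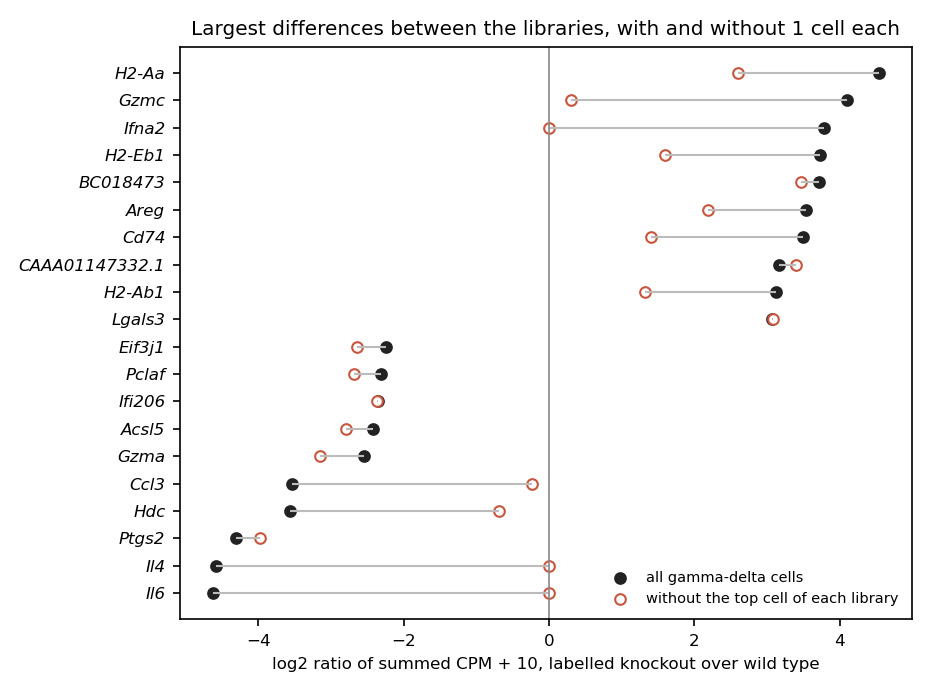
Log2 ratio of summed CPM + 10 in gamma-delta T cells, labelled knockout over wild-type library, for the 20 named genes. Filled points use all 95 cells, and open points leave out the cell of each library with the most UMIs of that gene. Ifna2, Il6 and Il4 moved to 0, Gzmc and Ccl3 to near 0 and Hdc to -0.69, while BC018473, Lgals3, Ptgs2, Acsl5, Ifi206 and Eif3j1 stayed on their side.

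Marker genes of other cell types were counted in the gamma-delta cells. Of 3 regulatory T cell markers, the list sum was 961 and 689 CPM, against 436 and 264 CPM in CD8 T and 547 and 574 CPM in conventional CD4 T cells. Ikzf2, which encodes Helios, and Il2ra, the IL-2 receptor alpha chain, carried this sum and were called higher than in CD8 T cells (edgeR adjusted p = 0.00173 and 0.00162), while Foxp3 stood at 17.7 and 5.79 CPM. ILC2 markers summed to 177 and 127 CPM, against 149 and 80.9 CPM in CD8 T cells. The part of these lists in the results was not tested. Of the B cell markers Cd79b had 2 and 3 UMIs, and Cd79a and Ms4a1 were at 0. Macrophage markers summed to 17.7 and 63.7 CPM, microglia markers (P2ry12, Tmem119 and Sparc) to 0 in both, neutrophil markers to 11.8 and 17.4 CPM, and dendritic cell markers to 0 and 34.7 CPM, the latter all in 1 cell. The gate capped C1qb and Lyz2 and set Ncr1 to 0, so the macrophage and NK sums are in part fixed by the choice of cells. Macrophage markers stood at 3.50 and 56.1 CPM in CD8 T cells. Of 7 NK or ILC1 markers 3 and 5 had UMIs, with Klra8 at 0 in both libraries, and the list summed to 171 and 162 CPM, against 2157 and 1630 CPM in NK cells. Among the gamma-delta cells 1 wild-type and 4 labelled knockout cells carried 2 or more UMIs of a B cell, myeloid, mast cell or dendritic list, or 10 or more of H2-Aa, H2-Ab1 and H2-Eb1. A doublet score marked 1 and 6 gamma-delta cells, including 5 of the 15 Il17a-type cells of the labelled knockout library. Without the score's cells, 24 genes were called between the states, 12 in each direction, and Il17a was found in 18 of 53 and 10 of 35 cells. Without the 5 cells with other markers, 81 genes were called, 51 higher and 30 lower in the Il17a-type.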

How the data were processed

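Droplet 5′ RNA-seq was analysed in 2 libraries, 1 per genotype. The authors deposited raw UMI counts per gene and cell, made with Cell Ranger 6.1.2 per the file headers, on mm10/GRCm38 per the submitters' processing notes. The filtered matrices held 3854 and 9194 barcodes and 14170828 and 50921793 UMIs over 32285 genes. Receptor (VDJ) libraries were not analysed here. Members, gene lists and tests were chosen with earlier results of these data known.

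Counts per gate or state were summed per library. Levels are CPM of the summed UMIs. Classes and states were compared with edgeR 4.0.16 (quasi-likelihood, TMM, filterByExpr, Benjamini-Hochberg, threshold 0.05) in R 4.3.3, with the library as a block and genes of the gates never called. On simulated data the class comparison of 8386 genes recovered 37.9% of log2 changes of 2 and 59.8% of 3, and the state comparison of 1053 genes 67.3% and 91.7%. The simulation gave every gene the same spread, no difference between the libraries and no single cells with most of the UMIs. The recovery in the real sums can therefore differ. Shares have exact Clopper-Pearson intervals at 95%, ratios exact conditional intervals, and a zero the limit of 3 counts. Nothing says that libraries hold separate replicates, so p-values measure the spread of class differences between the 2 libraries. The matching library is the pairing: its 4 classes come from the same pooled mice. Doublets stayed in, and removing the cells with the highest simulated-doublet scores (0.8% per 1000 barcodes, 119 and 676 cells) is an alternative.

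Named genes were the receptor, type 17 and type 1 genes, the 10 (CD8 T) or 5 (CD4 T, NK) largest fold changes each way among called genes, the 10 largest log2 ratios each way (10 CPM added, at least 100 CPM) between states and libraries, and the list members with the largest changes. Rankings left out genes of the gates, of antigen receptors, of ribosomes, of mitochondria and of haemoglobin, and also sex-linked and merely predicted ones. Other genes named in the text were chosen after their values were seen. Coordinates are from GENCODE on GRCm38, which matched 32158 of 32285 identifiers. Alternatives were DESeq2 1.42.0, no filter, no block, stricter gates, doublets removed, and other scaling. Leaving out cells with Trac, cells with markers of other cells, or the top cell of a gene was chosen after seeing the data. Results for some genes are not reported here.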

Additional observations from a re-analysis of the deposited data

Results flagged for a closer look

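Between the Il17a-type and the Ifng-type, Gzma and Tbx21 had opposite signs in the 2 libraries. The log2 difference of CPM + 10 for Gzma was -9.24 in the wild-type and 1.66 in the labelled knockout library, and for Tbx21 -3.68 and 1.82. Between the libraries, 3 genes went one way in gamma-delta cells and the other way in CD8 T cells. Gzmc differed by 4.10 on the log2 scale in gamma-delta and by -2.43 in CD8 T cells, Il4 by -4.58 and 1.33, and Ccl3 by -3.53 and 1.24. With 1 library per genotype the differences between the libraries were not tested, and the gamma-delta values of Gzmc, Il4 and Ccl3 rest on 1 cell each. Between the states Gzma did not pass the edgeR test given above.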

How the results depend on the processing

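The gamma-delta share followed the gate. Requiring 2 Trdc UMIs gave 0.329% in the labelled knockout library and 0.561% over both, and requiring a gamma constant UMI gave 1.01% in the wild-type library and 0.545% over both. Leaving out cells with Trac, Trbc1 or Trbc2 UMIs gave 0.355% and 0.113%, 0.184% over both, with Il17a in 15.4% of the wild-type and Ifng in 50% of the labelled knockout cells. Leaving out cells with Trac, chosen after seeing the data, gave 0.585% over both. After thinning, Ifng was found in 11.7%. Without the library block, which pairs the classes of a library, edgeR called 123, 180 and 121 genes against CD8 T, CD4 T and NK cells and 27 between states. Without a filter on low counts 712 genes were called against CD8 T cells. Removing the highest doublet scores left 24 genes between states. The median log2 ratio between libraries was 0.0463 without Trac, Trbc1 or Trbc2 cells, -0.18 without doublets, -0.0562 without Trac cells and -0.0268 with TMM scaling. Without Trac, Trbc1 or Trbc2 cells the ratios of Ccl3 and Gzma reversed to 4.03 and 1.81, and without cells with markers of other cell types, also chosen after seeing the data, that of Hdc reversed to 0.0524. Of the other named ratios between libraries, 11 moved and 7 stayed the same without Trac, Trbc1 or Trbc2 cells. Without cells with markers of other cell types 9 moved and 10 stayed the same. The cause was not tested. Of 40 named class genes 32 kept their call with DESeq2 and 27 without the block, and of 55 state calls 36 and 27. In each library alone, which allows no test, all 40 and all 55 kept their sign. These genes were chosen by their calls in the same libraries, so this was largely fixed by the choice and is no separate support. The state comparison could not be run without Trac, Trbc1 or Trbc2 cells, which left under 5 cells of a state in a library. Depth limits Ifng, which had 1 UMI in 11 of 20 positive cells.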
